A study of Xenopus tropicalis with 10 samples.

Results

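Ribosome biogenesis and nucleolar genes were followed through regrowth of the tail in tadpoles of the frog *Xenopus tropicalis* at stage 40, which replace a tail that has been cut off. The genes were chosen by symbol from a list of 60, matched in the expression table without regard to case and with numbered copies included. Of the 60 symbols, 50 had a row, and these gave 51 of the 26550 rows of the table, because UBTF had a second copy. That copy held between 0 and 3.09 normalised reads in every library and failed the filter on low values, a minimum of 10 normalised reads reached by 2 or more libraries. The remaining 50 rows, 1 for each symbol, passed it through their level in all 10 libraries and are the genes described here. POLR1B, DKC1, NCL, WDR43, HEATR1, EMG1, TSR1, NOP2, GNL3 and MYC had no row under the matching rule and were not analysed here.

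RNA from whole pieces of tail was sequenced in 10 libraries that fell into 6 groups, with no genetic change, transgene or drug in the labels. A first cut gave the whole tail group, with 2 libraries. A further cut made at once on the same tadpoles took the tissue next to the wound, which is the group at 0 hours post amputation (hpa), also with 2 libraries. Regrowing tails gave 1 library each at 6 and 15 hpa and 2 libraries each at 24 and 72 hpa. The submitters describe sequencing in duplicate, and no source used here says whether the libraries at 6 and 15 hpa, the deepest ones, are each a merged pair. No group held uncut tadpoles of the later ages, so time since amputation and age cannot be told apart. The whole tail group is the piece removed by the first cut. In comparisons with it, the part of the tail sampled and the time since amputation cannot be told apart either. The labels do not say that replicates came from separate animals, so the p-values rest on a spread between libraries that may be technical.

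Ribosomes are made mainly in the nucleolus. RNA polymerase I copies the ribosomal DNA into a long precursor, small nucleolar ribonucleoproteins (snoRNPs) guide its chemical modification, and large assemblies fold and cut it while ribosomal proteins join. The small subunit processome builds the 40S precursor, a separate set of factors builds the 60S precursor, and both are finished in the cytoplasm. Growing tissue is known for high output of this pathway, and MYC and mTOR signalling are known to drive it. The roles given for genes here are known chiefly from yeast and human cells.

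Values are normalised reads, the gene reads of a library divided by its size factor, so they follow a gene across libraries and do not compare levels between genes of different length. Fold changes are on the log2(normalised reads + 1) scale with a standard error (SE) from 1 limma fit over all 10 libraries, which lends the spread of the duplicated groups to the single libraries at 6 and 15 hpa. A gene is said to have risen or fallen where its Benjamini-Hochberg adjusted p over 17896 genes was under 0.05. Gene reads per library ranged from 15966579 to 128768239, and 3 reads were worth 0.852 to 7.29 normalised reads. In bulk tissue, more cells of a type and more RNA per cell cannot be told apart.

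The 50 genes had low values in the whole tail, a different piece of tissue, and higher values in regrowing tissue. Most of them had the highest value at 15 or 24 hpa and an intermediate one at 72 hpa. For 32 of the 50 genes (64.0%) the highest of the 6 group means, taken on the log2 scale, was at 15 hpa, against 17.1% of all genes tested. For a further 12 (24.0%) it was at 24 hpa, against 10.3% of all genes. The lowest group mean was in the whole tail for 41 of the 50 (82.0%), against 18.4% of all genes. The exceptions at the top were BOP1, NOL9 and NIP7, highest at 6 hpa, and RRN3, DDX21 and GNL2, highest at 72 hpa.

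Per library, the median of the 50 genes relative to each gene's own mean was -0.29 and -0.62 in the whole tail, -0.43 and -0.07 at 0 hpa, 0.09 in the 6 hpa library, 0.51 in the 15 hpa library, 0.57 and 0.27 in the 24 hpa pair, and -0.15 and 0.24 in the 72 hpa pair, on the log2 scale. Both whole tail libraries and both 0 hpa libraries thus lay below every library from 6, 15 and 24 hpa, and the 72 hpa libraries lay below both 24 hpa libraries and overlapped the 0 hpa range. Together the 50 genes took 0.303% and 0.25% of gene reads in the whole tail, 0.25% and 0.35% at 0 hpa, 0.39% in the 6 hpa library, 0.527% in the 15 hpa library, 0.51% and 0.459% in the 24 hpa pair, and 0.416% and 0.462% in the 72 hpa pair. Without NPM1 and DDX21 the share was 0.271% and 0.324% at 72 hpa, against 0.408% and 0.351% at 24 hpa and 0.228% and 0.18% in the whole tail.

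**Figure D1:**
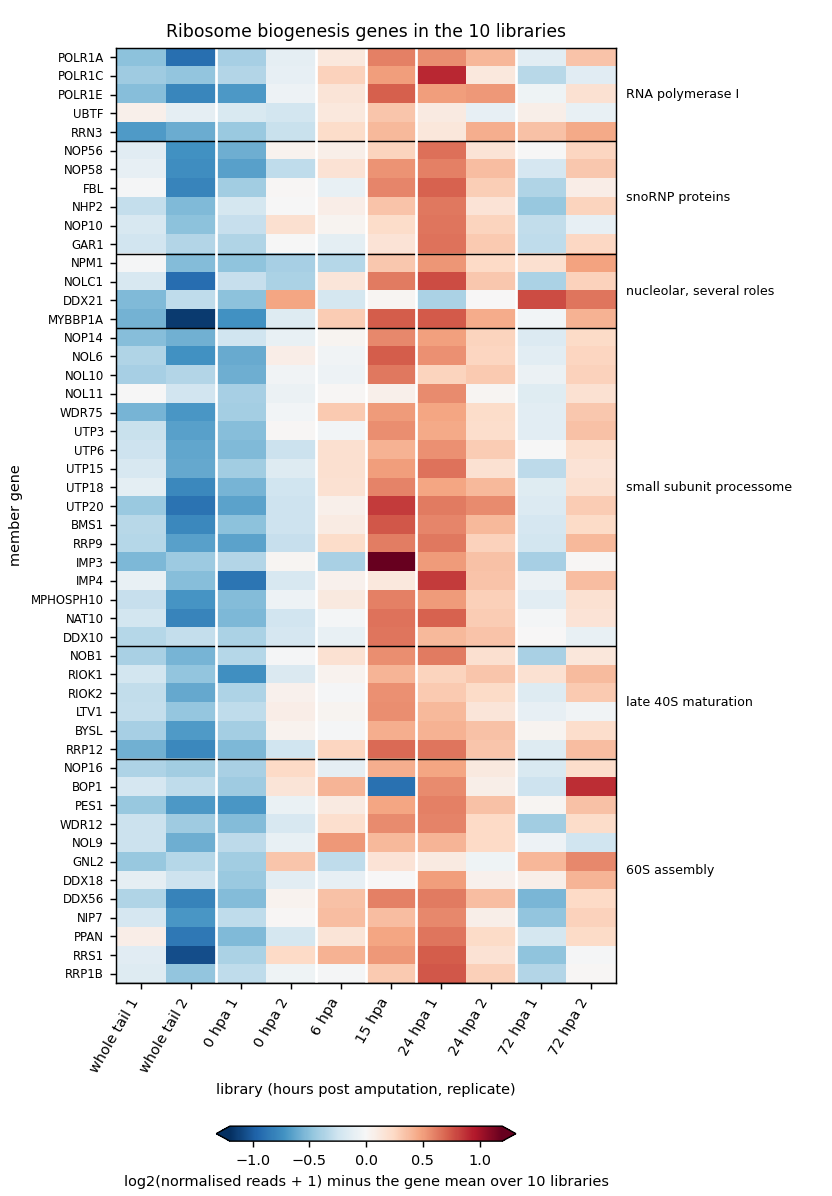
Heat map of the 50 genes (rows, grouped by role) in the 10 libraries (columns), coloured by log2(normalised reads + 1) minus the gene's mean over the libraries, with colours saturating at the ends of the scale. The whole tail and 0 hpa columns are mostly blue and the 15 and 24 hpa columns mostly red, with DDX21, GNL2, UBTF and BOP1 standing out from their neighbours.

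No gene of the 50 passed the F test for any difference among the 6 groups (limma, smallest adjusted p 0.0901), where 2.27% of all genes tested passed. At an unadjusted p under 0.05, 25 of the 50 passed this test, against 21.3% of all genes. The counts in each comparison below are therefore mostly of direction and of libraries that do not overlap, beside the share over all genes tested. In each comparison 48.6% to 51.5% of all genes tested were higher in value. The 50 genes differed as a block between replicates of a group, as described further below. They are thus not 50 separate pieces of evidence, and a shift of 1 library can move most of a count. The comparisons with 0 hpa share its 2 libraries, and those with the whole tail share that group's 2 libraries.

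Against the whole tail, all 50 genes were higher in value at 24 hpa, by a median of 0.87 (1.83-fold), while the median of all genes was -0.00 and 49.7% were higher. In 48 of the 50, both 24 hpa libraries were above both whole tail libraries, where 25.9% of all genes showed this. The exceptions were UBTF and DDX21. No gene of the 50 passed the adjusted threshold in limma, where 1.11% of all genes passed in either direction, and the smallest adjusted p was 0.0658, for UTP20. At an unadjusted p under 0.05, 44 of the 50 (88.0%) passed, against 17.6% of all genes. DESeq2 on the recovered reads called 20 of the 50 higher and 0 lower, where it called 4.1% of all genes higher. edgeR called 0 of the 50, with no share of all genes taken for it. Leaving out any library kept the median between 0.68 and 1.02.

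Against 0 hpa, the tissue beside the wound, 49 of the 50 genes were higher in value at 24 hpa by a median of 0.68 (1.6-fold), DDX21 being the exception. The 24 hpa libraries were both above the 0 hpa libraries in 45 of the 50, against 26.3% of all genes. The 5 genes with overlapping libraries were DDX21, NOP16, BOP1, GNL2 and RRS1. No gene of the 50 was called by limma, where 0.967% of all genes were called in either direction, and 32 of the 50 had an unadjusted p under 0.05 (64.0% against 16.8%). DESeq2 called 8 of the 50 higher, where it called 3.16% of all genes higher. They were UTP20, DDX10, UTP6, NPM1, BMS1, RRP12, MYBBP1A and IMP4. The median moved from 0.47 without 0 hpa replicate 1 to 0.84 without 0 hpa replicate 2.

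At 15 hpa, with a single library, 49 of the 50 genes were higher in value than at 0 hpa by a median of 0.78 (1.71-fold), the exception being BOP1. The 15 hpa library lay above both 0 hpa libraries in 47 of the 50, against 36.5% of all genes. No gene of the 50 was called by limma, against 0.363% of all genes in either direction, and 31 (62.0%) had an unadjusted p under 0.05, against 13.5%. DESeq2 called 4 of them higher, DDX10, IMP3, UTP20 and BMS1, where it called 2.33% of all genes higher. At 6 hpa, also a single library, 46 of the 50 were higher in value than at 0 hpa by a median of 0.39. The 6 hpa library lay above both 0 hpa libraries in 37 of the 50, against 35.0% of all genes. limma called 0 of the 50 and 0.0% of all genes at 6 hpa, with 1 of the 50, NOL9, at an unadjusted p under 0.05 (2.0% against 5.83% of all genes), and DESeq2 and edgeR called 0 of the 50. The share of all genes called by DESeq2 and edgeR was not taken at 6 hpa, so that 0 is not set against a background. The 6 hpa median was 0.20 without 0 hpa replicate 1 and 0.58 without 0 hpa replicate 2.

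Between the tissue beside the wound at 0 hpa and the whole tail no difference was called. The median was 0.21 with 42 of the 50 higher in value, but it was -0.02 with 23 higher once 0 hpa replicate 2 was left out, 0.06 without whole tail replicate 2, 0.38 without whole tail replicate 1 and 0.41 without 0 hpa replicate 1. In 9 of the 50 both 0 hpa libraries lay above both whole tail libraries, about the share of all genes (18.0%). In 1 of the 50, UBTF, both lay below, against 3199 of the 17896 genes tested. No gene was called by limma in this comparison (0.0% of all genes), and none of the 50 had an unadjusted p under 0.05 (against 7.95% of all genes). DESeq2 and edgeR called 0 of the 50, with no share of all genes taken for either tool here.

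At 72 hpa most of the 50 genes lay in value between 24 hpa and the whole tail, but no fall from 24 hpa was called. Against 24 hpa, 47 of the 50 genes were lower in value, by a median of -0.39 (0.763-fold), and 29 had both 72 hpa libraries below both 24 hpa libraries, against 21.2% of all genes. DDX21 and GNL2 had both above, against 21.4% of all genes. limma called none of the 50 at 72 against 24 hpa, where 0.0726% of all genes were called, and 5 had an unadjusted p under 0.05, about the share of all genes (10.7%). DESeq2 and edgeR also called 0 of the 50, with no share of all genes taken for either tool in this comparison. The median was -0.17 without 72 hpa replicate 1, -0.23 without 24 hpa replicate 1 and -0.57 without 72 hpa replicate 2.

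Against the whole tail, all 50 were still higher in value at 72 hpa, by a median of 0.49 (1.41-fold), and 33 had both 72 hpa libraries above both whole tail libraries, against 27.3% of all genes. RRN3 alone was called by limma, where 4.61% of all genes rose, so the share of members called was not above the background. At an unadjusted p under 0.05, 16 of the 50 (32.0%) passed, against 27.4% of all genes. DESeq2 called 7 higher, where it called 8.67% of all genes higher. The median was 0.30 without 72 hpa replicate 2 and 0.73 without whole tail replicate 1. Against 0 hpa, 46 of the 50 were higher in value at 72 hpa by a median of 0.32, with 21 not overlapping, against 27.0% of all genes. limma called none of these 50, where 6.4% of all genes were called in either direction, 4 (8.0%) had an unadjusted p under 0.05, below the 24.1% of all genes, and DESeq2 called NPM1 and RRN3, where it called 5.63% of all genes higher. That median was 0.13 without 0 hpa replicate 1, 0.15 without 72 hpa replicate 2, 0.52 without 0 hpa replicate 2 and 0.54 without 72 hpa replicate 1.

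**Figure D2:**
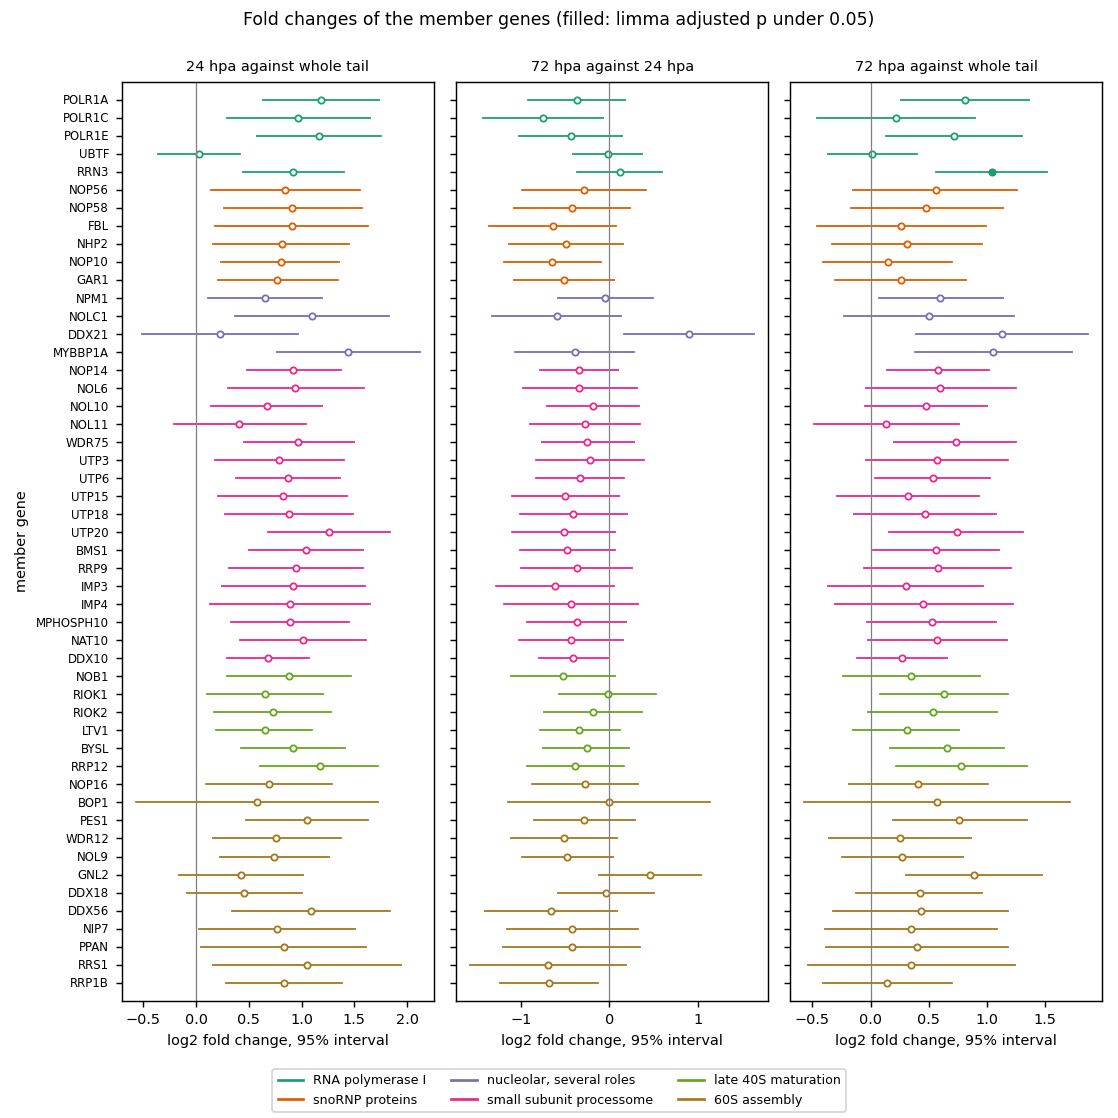
Log2 fold change of each of the 50 genes (vertical axis, coloured by role) with its 95% interval from limma, for 24 hpa against the whole tail, 72 hpa against 24 hpa and 72 hpa against the whole tail. A filled point passed the adjusted threshold, which RRN3 alone did, in the right panel. Points lie right of 0 in the left and right panels and mostly left of 0 in the middle one, where DDX21, GNL2 and RRN3 are the exceptions.

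Among the 5 genes of RNA polymerase I transcription, all but UBTF had both 24 hpa libraries above both whole tail libraries. Of all genes, 25.9% showed this. POLR1A encodes the largest subunit of the polymerase. It held 1630 and 1227 normalised reads in the whole tail, 1743 and 2127 at 0 hpa, 2507 in the 6 hpa library, 3493 in the 15 hpa library, 3393 and 3033 in the 24 hpa pair, and 2102 and 2921 in the 72 hpa pair. Its whole tail libraries lay below all others, and its 15 and 24 hpa libraries above all others. The fold change at 24 hpa against the whole tail was 1.18 with an SE of 0.235 and an adjusted p of 0.0661 in limma, and DESeq2 gave 1.17 with an adjusted p of 0.00203. POLR1E, a further subunit of the enzyme, behaved alike, at 691.9 and 571.2 normalised reads in the whole tail against 1398 and 1419 at 24 hpa (log2 fold change 1.16, SE 0.25, limma adjusted p 0.0814).

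RRN3 is the initiation factor that brings the polymerase to the ribosomal DNA promoter. It held 395.1 and 419.2 normalised reads in the whole tail, 464.7 and 524 at 0 hpa, 735.9 in the 6 hpa library, 829.6 in the 15 hpa library, 696 and 854.9 in the 24 hpa pair, and 806.3 and 867.6 in the 72 hpa pair. All 6 libraries from 6 hpa on lay above all 4 libraries of the whole tail and 0 hpa, and the 72 hpa values did not come down. RRN3 rose at 72 hpa against the whole tail by a log2 fold change of 1.04 (95% interval 0.56 to 1.52, 2.05-fold, limma adjusted p 0.0253). The limma call was lost when any of the 4 libraries compared was left out, with adjusted p of 0.117 and 0.0729 without whole tail replicates 1 and 2 and 0.0584 and 0.107 without 72 hpa replicates 1 and 2. Its difference between 72 and 24 hpa was 0.12 (95% interval -0.37 to 0.60), and it was -0.03 without 24 hpa replicate 1.

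UBTF encodes the factor that binds along active ribosomal DNA and keeps it open. It held 7263 and 6475 normalised reads in the whole tail, 6164 and 6009 at 0 hpa, 7631 in the 6 hpa library, 8802 in the 15 hpa library, 7543 and 6508 in the 24 hpa pair, and 7313 and 6555 in the 72 hpa pair. The whole tail, 24 hpa and 72 hpa ranges overlapped, while all 6 later libraries lay above both 0 hpa libraries and the 15 hpa library was the highest. At 24 hpa against the whole tail its log2 fold change was 0.03 with a 95% interval of -0.36 to 0.42, whose upper end is below the median of the 50 genes, and it was -0.08 without 24 hpa replicate 1. POLR1C, a subunit shared with RNA polymerase III and named after its values were seen, was highest in 24 hpa replicate 1 with 961.3 normalised reads. It held 558.3 in the other 24 hpa library and 405.6 and 466.6 at 72 hpa, close to the 379.4 and 369 of the whole tail.

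The 6 snoRNP proteins were all higher at 24 hpa than in the whole tail without overlap, by 0.77 to 0.91. Of all genes, 25.9% were higher without overlap there. The highest group mean was at 24 hpa for 4 of the 6, against 10.3% of all genes. FBL is fibrillarin, the methyltransferase of box C/D snoRNPs. It held 7777 and 4551 normalised reads in the whole tail, 5910 and 7938 at 0 hpa, 7404 in the 6 hpa library, 11830 in the 15 hpa library, 12850 and 9677 in the 24 hpa pair, and 6126 and 8307 in the 72 hpa pair. The 15 and 24 hpa libraries lay above all others, while the 72 hpa libraries lay near the range of the whole tail and 0 hpa. Its log2 fold change at 24 hpa against the whole tail was 0.91 (SE 0.311, limma adjusted p 0.198), and 0.52 without whole tail replicate 2. The value at 72 against 24 hpa was -0.64 (limma adjusted p 0.515), and -0.42 without 72 hpa replicate 1.

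NOP58, a core protein of the same snoRNPs, had the largest difference of the role at 24 against 0 hpa, at 0.97 (SE 0.281, limma adjusted p 0.164), from 4064 and 5177 to 9694 and 8286 normalised reads. NOP10, a small protein of the box H/ACA snoRNPs that guide pseudouridylation, had the smallest, at 0.50, from 1263 and 1750 to 2389 and 1842 normalised reads, and it was 0.26 without 0 hpa replicate 1 and 0.31 without 24 hpa replicate 1. Both genes were without overlap in that comparison, as were 26.3% of all genes in the same direction. NOP56, the partner of NOP58, held 5596 and 3730 normalised reads in the whole tail, 4092 and 6348 at 0 hpa and 6455 in the 6 hpa library. It held 7407 in the 15 hpa library, 9768 and 6895 in the 24 hpa pair, and 6123 and 7371 in the 72 hpa pair. Its log2 fold change at 24 hpa against the whole tail was 0.84 (SE 0.303, limma adjusted p 0.215). As a role, the snoRNP proteins had a median at 72 hpa against the whole tail of 0.29, with 1 of 6 not overlapping. Of all genes, 27.3% had both 72 hpa libraries above both whole tail libraries.

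The 4 nucleolar proteins of several roles had the widest range of fold changes of the 6 roles at 24 hpa against the whole tail. MYBBP1A, a Myb-binding nucleolar protein, had the largest fold change of the 50 at 24 hpa against the whole tail, at 1.44 (SE 0.29, 2.72-fold, limma adjusted p 0.0675, DESeq2 adjusted p 0.0011). It held 1899 and 1266 normalised reads in the whole tail, 1698 and 2514 at 0 hpa, 3456 in the 6 hpa library, 4628 in the 15 hpa library, 4666 and 3817 in the 24 hpa pair, and 2750 and 3755 in the 72 hpa pair. Every library from 6 hpa on was above every library of the whole tail and 0 hpa. NOLC1, a chaperone that shuttles snoRNPs, held 4001 and 2435 normalised reads in the whole tail and 7864 and 5723 at 24 hpa (2.15-fold, SE 0.314 on the log2 scale, limma adjusted p 0.14), and held 3509 and 5563 at 72 hpa, overlapping the whole tail range.

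NPM1 is nucleophosmin, an abundant nucleolar chaperone. It held 16530 and 11610 normalised reads in the whole tail, 11890 and 12630 at 0 hpa, 13180 in the 6 hpa library, 20840 in the 15 hpa library, 24000 and 19680 in the 24 hpa pair, and 19050 and 23240 in the 72 hpa pair. The 6 hpa library was still at the level of 0 hpa, and all 5 libraries from 15 hpa on lay above the other 5. The log2 fold change against 0 hpa was 0.83 at 24 hpa (limma adjusted p 0.152) and 0.78 at 72 hpa (limma adjusted p 0.0908), and the difference between 72 and 24 hpa was -0.05 with a 95% interval of -0.58 to 0.49, or 0.10 without 72 hpa replicate 1.

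DDX21, a nucleolar RNA helicase, departed from the others. It held 13430 and 15620 normalised reads in the whole tail, 13700 and 26780 at 0 hpa, 16690 in the 6 hpa library, 19610 in the 15 hpa library, 14840 and 19450 in the 24 hpa pair, and 33300 and 30110 in the 72 hpa pair. The 0 hpa replicates were far apart, with replicate 2 above every library up to 24 hpa, and both 72 hpa libraries were above all 8 others. DDX21 was 1.13 higher at 72 hpa than in the whole tail (SE 0.319, limma adjusted p 0.0676, DESeq2 adjusted p 0.0116) and 0.90 higher than at 24 hpa (limma adjusted p 0.365). Its difference at 24 against 0 hpa was -0.17, and it was 0.31 without 0 hpa replicate 2.

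**Figure D3:**
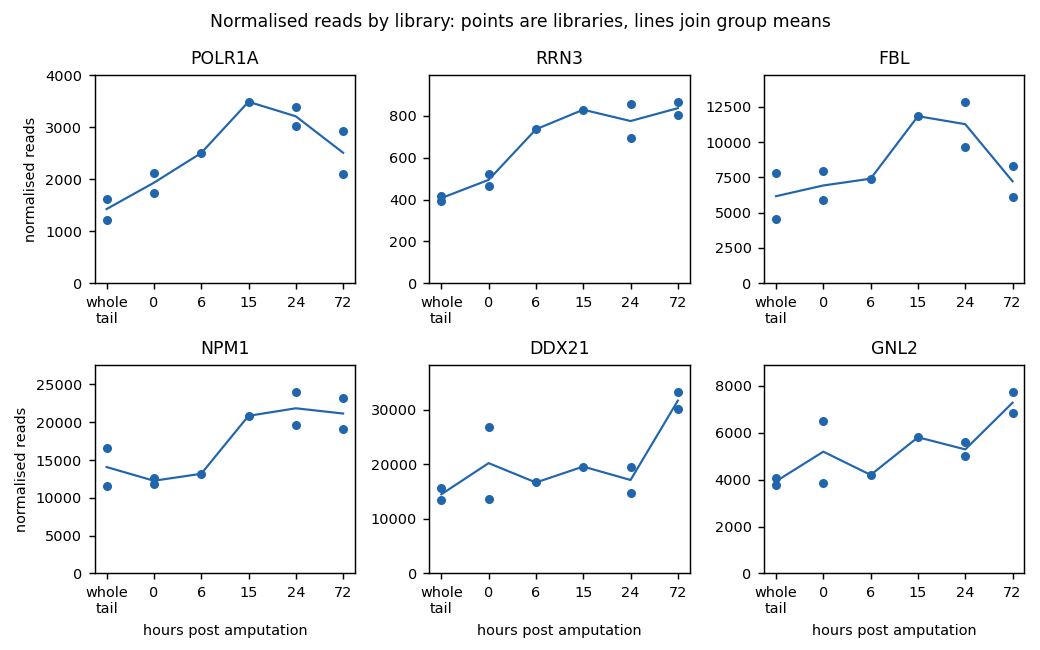
Normalised reads (vertical axis, linear from 0) of POLR1A, RRN3, FBL, NPM1, DDX21 and GNL2 in the 6 groups (horizontal axis, in order and not to scale), with points for libraries and lines joining group means. POLR1A and FBL were highest at 15 and 24 hpa, RRN3 and NPM1 stayed high at 72 hpa, and DDX21 and GNL2 were highest at 72 hpa.

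The small subunit processome was the largest role with 17 genes. All 17 had both 24 hpa libraries above both whole tail libraries, against 25.9% of all genes, and above both 0 hpa libraries, against 26.3%. The highest group mean was at 15 hpa for 14 of the 17, against 17.1% of all genes. Their median log2 fold change was 0.93 at 15 hpa and 0.69 at 24 hpa against 0 hpa, and 0.89 at 24 hpa and 0.54 at 72 hpa against the whole tail. IMP4, a protein bound to the U3 snoRNP, had the largest difference of the 50 at 24 against 0 hpa, at 1.12 (SE 0.327, limma adjusted p 0.163, DESeq2 adjusted p 0.0438). It held 536.1 and 398.9 normalised reads in the whole tail, 311 and 498.3 at 0 hpa, 591.6 in the 6 hpa library, 623.4 in the 15 hpa library, 1020 and 724.1 in the 24 hpa pair, and 544.1 and 738.8 in the 72 hpa pair. Its highest group mean was thus at 24 hpa and not at 15 hpa, but 72 hpa replicate 2 lay above 24 hpa replicate 2. The difference between 24 and 15 hpa was not tested.

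NOL11, a processome protein that also acts in ribosomal DNA transcription, had the smallest difference of the role at 24 against 0 hpa, at 0.53 (SE 0.269, limma adjusted p 0.37), which was 0.26 without 24 hpa replicate 1, 0.36 without 0 hpa replicate 1 and 0.80 without 24 hpa replicate 2. Its values stayed between 457.2 and 897.1 normalised reads, and only 24 hpa replicate 1 stood clear of the rest. UTP20, a large processome scaffold named after its values were seen, held 1130 and 833.1 normalised reads in the whole tail, 983.7 and 1293 at 0 hpa, 1610 in the 6 hpa library, 2752 in the 15 hpa library, 2368 and 2274 in the 24 hpa pair, and 1373 and 1901 in the 72 hpa pair. Its 4 whole tail and 0 hpa libraries lay below all 6 later ones, with a log2 fold change of 1.26 at 24 hpa against the whole tail (SE 0.249, limma adjusted p 0.0658, DESeq2 adjusted p 0.00148).

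IMP3, the partner of IMP4 and also named after its values were seen, was the gene of the 50 with the largest difference at 15 hpa, at 1.37 against 0 hpa (SE 0.352, limma adjusted p 0.17, DESeq2 adjusted p 0.017). It held 533.6 normalised reads in the 15 hpa library and 157.7 to 329.6 in the other 9. At 6 hpa it held 176.1 normalised reads, below both 0 hpa libraries. DDX10, a helicase named in the same way, had the smallest limma adjusted p of the 50 at 15 hpa, 0.131, with 2268 normalised reads at 15 hpa, 1905 and 1848 at 24 hpa and 1115 to 1458 in the other 7 libraries.

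The 6 factors of late 40S maturation act on the 40S precursor, some of them during export or in the cytoplasm. All 6 had their highest group mean at 15 hpa, against 17.1% of all genes. Their 24 hpa libraries all lay above both whole tail libraries, against 25.9% of all genes, and so did their 72 hpa libraries, against 27.3%. RRP12, an export factor, held 1041 and 905 normalised reads in the whole tail, 1068 and 1310 at 0 hpa, 1849 in the 6 hpa library, 2487 in the 15 hpa library, 2427 and 1958 in the 24 hpa pair, and 1389 and 2005 in the 72 hpa pair. The 4 early libraries lay below the 6 later ones, and the log2 fold change at 24 hpa was 1.17 against the whole tail (SE 0.239, limma adjusted p 0.072, DESeq2 adjusted p 0.00233) and 0.88 against 0 hpa (limma adjusted p 0.145). LTV1, an assembly factor removed before the subunit matures, had the smallest difference of the role at 24 against 0 hpa, at 0.38 (limma adjusted p 0.374), from 1943 and 2537 to 3159 and 2656 normalised reads. That difference was 0.19 and 0.58 without 0 hpa replicates 1 and 2. NOB1, the nuclease that makes the end of 18S rRNA, held 928.5 and 824.9 normalised reads in the whole tail, 1868 and 1389 at 24 hpa and 929.9 and 1334 at 72 hpa. RIOK2, a kinase of the same step, held 1384 and 1108 normalised reads in the whole tail, 2110 and 1997 at 24 hpa and 1532 and 2117 at 72 hpa.

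The 12 factors of 60S assembly peaked in 4 of the 6 groups, with 5 genes highest at 15 hpa, 3 each at 6 and 24 hpa, and GNL2 at 72 hpa. All 12 had both 24 hpa libraries above both whole tail libraries, by a median of 0.77, where 25.9% of all genes did. Only 8 of 12 did so against 0 hpa, where 26.3% of all genes did. PES1 is a scaffold of the complex with BOP1 and WDR12 that processes the precursor of the large subunit rRNAs. It held 2735 and 2332 normalised reads in the whole tail, 2318 and 3560 at 0 hpa, 4059 in the 6 hpa library, 5213 in the 15 hpa library, 5717 and 4780 in the 24 hpa pair, and 3826 and 4802 in the 72 hpa pair. Every library from 6 hpa on was above the earlier ones, with a log2 fold change at 24 hpa of 1.05 against the whole tail (SE 0.248, limma adjusted p 0.0973) and 0.86 against 0 hpa, the latter 0.55 without 0 hpa replicate 1.

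BOP1, in the same complex, had few reads and no such pattern. It held 61.22 and 56.98 normalised reads in the whole tail, 52.46 and 78.78 at 0 hpa, 94.02 in the 6 hpa library, 37.6 in the 15 hpa library, 105.3 and 74.45 in the 24 hpa pair, and 59.36 and 131.2 in the 72 hpa pair. The 72 hpa replicates spanned much of the whole range, and the 15 hpa library was the lowest of all, with a log2 fold change of -0.76 against 0 hpa and a 95% interval of -2.16 to 0.64. WDR12, the third protein of the complex and named after its values were seen, held 1444 and 1285 normalised reads in the whole tail and 2616 and 2045 at 24 hpa, and thus moved as PES1 did up to 24 hpa.

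GNL2, a GTPase of the 60S precursor, had the smallest difference of the role at 24 against 0 hpa, at 0.07, and it was -0.30 without 0 hpa replicate 1. It held 3782 and 4074 normalised reads in the whole tail, 3869 and 6506 at 0 hpa, 4197 in the 6 hpa library, 5801 in the 15 hpa library, 5579 and 4990 in the 24 hpa pair, and 6815 and 7731 in the 72 hpa pair. As with DDX21, 0 hpa replicate 2 was high and both 72 hpa libraries were above all others. The log2 fold change at 72 hpa was 0.89 against the whole tail (SE 0.25, limma adjusted p 0.0676, DESeq2 adjusted p 0.0224) and 0.46 against 24 hpa (limma adjusted p 0.568).

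**Figure D4:**
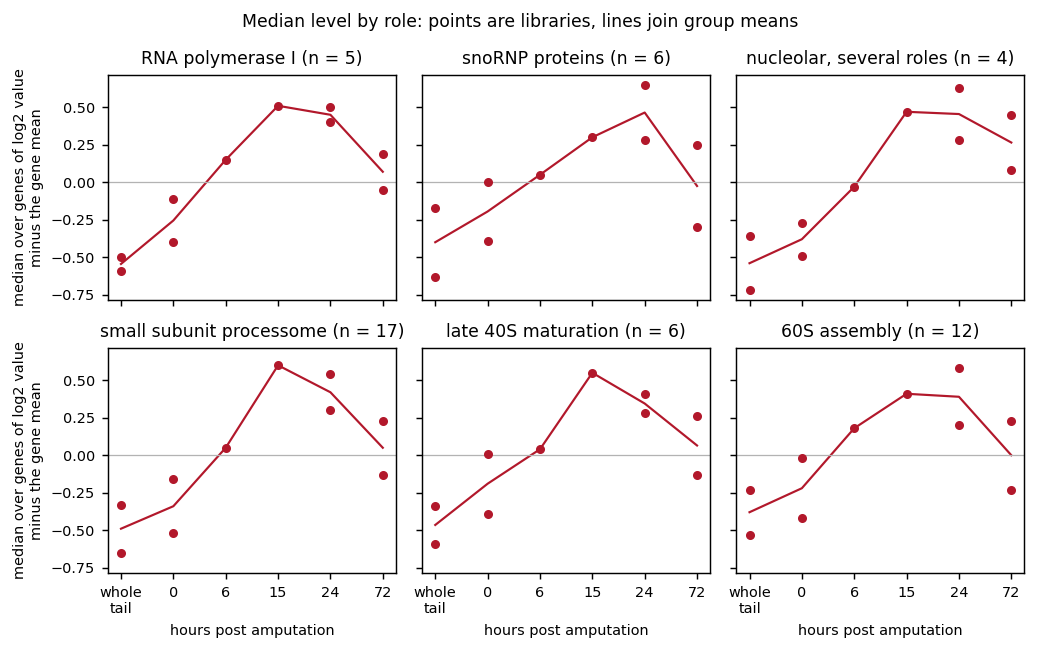
Median over the genes of each role of the log2 value minus the gene's mean (vertical axis) in the 6 groups (horizontal axis, in order and not to scale), with points for libraries and lines joining group means. Every role had its lowest group mean and its lowest single library, replicate 2, in the whole tail. In all roles but RNA polymerase I transcription, 0 hpa replicate 1 lay below whole tail replicate 1. The snoRNP proteins, the other nucleolar proteins and the 60S factors were highest in 24 hpa replicate 1. The processome and late 40S factors were highest in the single 15 hpa library.

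Other genes of the pathway were also mostly higher in value in regrowing tissue. Of 31 further 60S assembly factors all 31 were higher in value at 24 hpa than in the whole tail, by a median of 0.63, and MDN1, the large ATPase that removes factors from the 60S precursor, rose by 1.00 (SE 0.16, limma adjusted p 0.0412), where 0.793% of all genes rose. MDN1 also rose at 72 hpa against the whole tail, by 0.79 (limma adjusted p 0.0264). Of 26 further small subunit factors 25 were higher in value at 24 hpa by a median of 0.85, and PDCD11, the homologue of yeast Rrp5, rose by 1.51 (SE 0.244, limma adjusted p 0.0412). Both calls at 24 hpa were lost without the filter on low values (adjusted p 0.0571 for MDN1 and 0.111 for PDCD11), and with a replicate block (0.0546 and 0.0543). The MDN1 call at 24 hpa was lost without any 1 of the 8 duplicated libraries (adjusted p 0.0553 to 0.229), that of PDCD11 without any whole tail, 0 hpa or 24 hpa library (0.0723 to 0.179), and the MDN1 call at 72 hpa without any whole tail or 72 hpa library (0.054 to 0.105). The RNA exosome (14 genes, median 0.41) and further subunits and factors of RNA polymerases I and III (24 genes, median 0.32) had none called in any comparison.

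Ribosomal protein genes, whose products the pathway assembles, had their lowest values at 6 hpa. All 63 cytosolic ribosomal proteins were lower in value at 6 hpa than at 0 hpa by a median of -0.32, and 59 of 63 were lower at 15 hpa by -0.14. The single 6 hpa library was below both 0 hpa libraries in 60 of the 63, and in 6234 of the 17896 genes tested. The 15 hpa library was below both 0 hpa libraries in 24 of the 63, about the share of all genes (38.4%). At 24 hpa their median was -0.02 against 0 hpa and 0.07 against the whole tail. At 72 against 24 hpa, 62 of 63 were higher in value by 0.21, where 47 of the 50 biogenesis genes were lower. In 39 of the 63 both 72 hpa libraries lay above both 24 hpa libraries, against 21.4% of all genes. None of the 63 was called in any comparison. The mTOR pathway (20 genes) and the partners and relatives of MYC (11 genes) had medians of 0.03 and -0.12 at 24 hpa against the whole tail, with none called in any comparison.

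Genes of S phase and mitosis, measured as a sign of cell division, were mostly lower in value in regrowing tissue. Of 25 tested, 4 were higher and 21 lower in value at 24 hpa than in the whole tail, by a median of -0.21, with none called. Both 24 hpa libraries lay below both whole tail libraries in 8 of the 25, and in 4552 of the 17896 genes tested. At an unadjusted limma p under 0.05, 1 of the 25 (4.0%) passed, against 17.6% of all genes. Whole tail replicate 1 was above replicate 2 in 21 of the 25, by a median of 0.46. NDC80, a kinetochore protein, fell by 2.18 on the log2 scale at 15 hpa against 0 hpa (SE 0.217, limma adjusted p 0.0264), and the adjusted p was 0.116 and 0.122 without 0 hpa replicates 1 and 2 and 0.0501 and 0.0502 without 24 hpa replicates 1 and 2. At 72 hpa, 7 of the 25 fell against 0 hpa, where 3.53% of all genes fell, and 8 fell against the whole tail, where 4.68% of all genes fell. The cyclin gene CCNA2, the kinesin gene KIF11 and the ribonucleotide reductase gene RRM2.2 fell most in both.

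**Figure D5:**
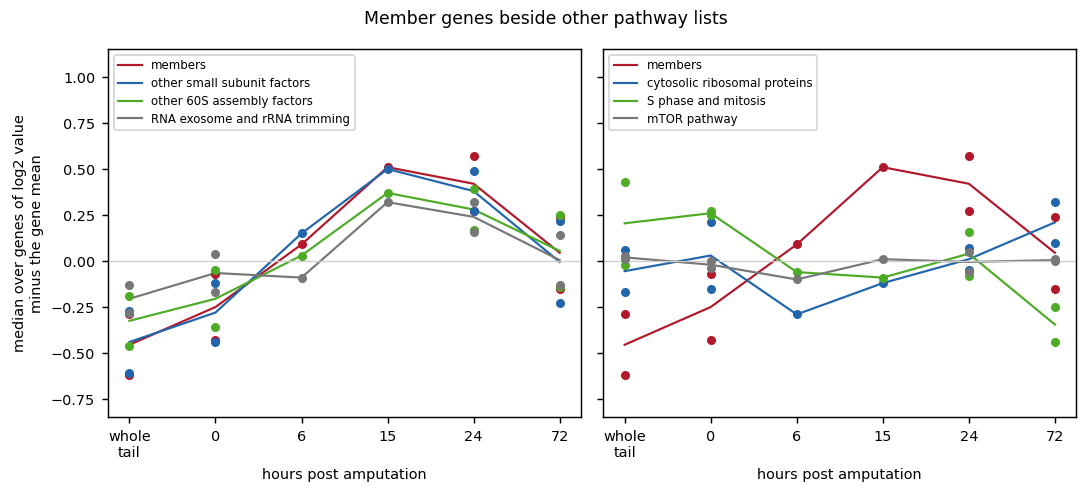
Median over genes of the log2 value minus the gene's mean (vertical axis) for the 50 genes and for other pathway lists in the 6 groups (horizontal axis, in order and not to scale), with points for libraries and lines joining group means. The further 60S and small subunit factors follow the 50 genes, while cytosolic ribosomal proteins are lowest at 6 hpa and the S phase and mitosis genes are lowest at 72 hpa.

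Replicates of a group differed in the level of the 50 genes as a block. In the whole tail 44 of the 50 were higher in replicate 1, by a median of 0.31, and at 24 hpa 45 were, by 0.27. At 0 hpa 48 were higher in replicate 2, with a median difference of replicate 1 from replicate 2 of -0.36, and at 72 hpa 46 were, with -0.39. All genes tested were split about evenly, with 50.4% to 52.8% higher in replicate 1 in the 4 duplicated groups. Cytosolic ribosomal proteins were higher in the same replicate in 61 of 63, 63 of 63, 58 of 63 and 62 of 63 cases.

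Markers of other cell types moved with some of these differences and against others. The summed level of 14 skeletal muscle genes was 627300 and 109400 normalised reads in whole tail replicates 1 and 2, 449700 and 166800 at 24 hpa, and 129700 and 663300 at 72 hpa, each time higher in the replicate where the 50 genes were higher. At 0 hpa it was 292500 and 279700, close to equal. The summed level of 14 red blood cell genes was higher in the replicate where the 50 genes were higher in all 4 duplicated groups, with replicates 1 and 2 of the whole tail at 260400 and 209800. The sums were 499300 and 1569000 in the 0 hpa pair, 203400 and 128500 in the 24 hpa pair, and 44160 and 116800 in the 72 hpa pair. Epidermis genes went the other way, with their sum higher in the replicate where the 50 genes were lower in all 4 duplicated groups. That sum was 1620000 and 1734000 in the whole tail and 1189000 and 1097000 at 0 hpa. It was 1228000 and 1299000 at 24 hpa and 1114000 and 736100 at 72 hpa. Sums of the notochord, neuron and leukocyte genes went with the 50 genes in some duplicated groups and against them in others. The summed level of 11 leukocyte genes was 4087 and 3754 in the whole tail, 6700 and 7304 at 0 hpa, 14130 in the 6 hpa library, 27260 in the 15 hpa library, 11610 and 13950 in the 24 hpa pair, and 20240 and 16180 in the 72 hpa pair. Of the 10 leukocyte genes tested, 7 rose at 24 hpa and all 10 at 72 hpa against the whole tail, where 0.793% and 4.61% of all genes rose. Of 10 neuron genes, 2 fell at 24 hpa and 8 at 72 hpa against the whole tail, where 0.313% and 4.68% of all genes fell. Of 13 red blood cell genes tested, 11 fell at 72 against 0 hpa, where 3.53% of all genes fell. Against the whole tail, 0 of the 13 fell at 24 hpa and 5 at 72 hpa, where 0.313% and 4.68% of all genes fell. The 10 notochord genes had a median log2 fold change of -0.97 at 24 hpa against the whole tail, with 1 called higher and 1 lower. The 14 epidermis genes tested had a median of -0.15 there, with 0 called higher and 1 lower. Against 0 hpa, 3 of the 14 rose at 15 hpa and 3 at 24 hpa, where 0.363% and 0.967% of all genes were called in either direction. None of these markers was at 0 in every library, and their part in the levels of the 50 genes was not tested.

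The authors' deposited table carries a flag of change and a cluster for some genes, with a test and threshold that the table does not state. The flag of the authors' deposited table was carried by 27 of the 51 rows (52.9%), against 19.2% of all 26550 genes. Of these, 21 (41.2% of the 51) were in its cluster 6, which holds 1.83% of all genes. Of all 26550 genes 17896 passed the filter on low values, while 50 of the 51 rows did, so these shares are not of like genes. The flag and cluster describe these same libraries and are no separate evidence. NPM1 and GNL2 were in cluster 7 of the authors' deposited table, DDX21 was in cluster 8, and POLR1C, IMP3 and IMP4 had the flag with no cluster.

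Rows outside the matching rule, chosen after their values were seen, stood near some of the symbols with no row. POLR1B-LIKE held 610.3 and 381.3 normalised reads in the whole tail and 1501 and 1102 at 24 hpa, with a log2 fold change of 1.41 (limma adjusted p 0.11). NOP2-LIKE was 1.17 higher (adjusted p 0.137) and DKC1-LIKE 1.08 higher (adjusted p 0.198) in the same limma comparison. MYCN, a relative of MYC, was -0.81 against the whole tail at 24 hpa (limma adjusted p 0.244), from 574.1 and 370.4 to 304.9 and 225.7 normalised reads. MYCL, a further relative, was 0.23 against the whole tail (limma adjusted p 0.754) and 0.89 against 0 hpa (limma adjusted p 0.223) at 24 hpa.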

How the data were processed

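Total RNA of 10 tail libraries was sequenced from Illumina TruSeq libraries, per the labels' protocols. R 3.2.0, HTSeq, SAMtools 1.1, DESeq2, TopHat2 2.0.13 and Trim Galore 0.3.3 appear, with no role stated, in the submitters' processing notes. No source used here gives the genome build. The deposited table holds, for each gene and library, a normalised signal made by the authors. Every value was a whole number of reads (tolerance 0.01) times a constant of its library, and these constants matched DESeq2 size factors to within 1.6e-09, so reads could be recovered. Because the deposited unit is signal and not counts, limma (3.58.1, R 4.3.3) with a variance trend was the main test. It was run on log2(signal + 1) over all 10 libraries with 6 groups and 4 residual degrees of freedom, with edgeR (4.0.16) and DESeq2 (1.42.0) on the recovered reads tried beside it. Fold changes on this scale understate the change of low genes. The code was tested on simulated data.

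The members and lists were chosen with earlier results of these data known. The genes named are those called in any comparison, those with the largest and smallest difference at 24 against 0 hpa in each role, and a panel of members. Up to 3 called genes of each other pathway list are also named. Cell type markers are given only as sums, counts and medians, and none is named. Any other gene is marked as named with its values in view, or is one that a count leaves out. Alternatives were TMM scaling, 2 other filters, a pseudocount of 8, leaving out each replicate, a replicate block and both count tests.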

Additional observations from a re-analysis of the deposited data

How the results depend on the processing

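TMM scaling, the 2 other filters on low values, a pseudocount of 8 and edgeR moved the medians of the 50 genes by at most 0.05 and the number higher in value by at most 1, and they changed no count of members called. DESeq2 called 4 members higher at 15 hpa, 8 at 24 hpa and 2 at 72 hpa against 0 hpa, and 20 at 24 hpa and 7 at 72 hpa against the whole tail, where limma called 0, 0, 0, 0 and 1. Replicate numbers were not shown to pair the libraries, since the correlation of replicate 1 deviations between groups ran from -0.135 to 0.271. A replicate block gave the same 1 call at 72 hpa against the whole tail, and a block with the 72 hpa numbers crossed, added after seeing the data, gave 2. The share of all genes called in the block fits was not taken, so these counts are not set against a background.

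Leaving out each replicate also moved the count called at 72 hpa against the whole tail. The share of all genes called in those fits was not taken, and the cause was not tested. At 0 hpa against the whole tail, leaving out each replicate moved the median between -0.02 and 0.41 and the number higher between 23 and 48. At 72 against 24 hpa the number higher ran from 3 to 9. Among the fold changes of named genes checked singly, leaving out a replicate turned the direction of UBTF at 24 hpa against the whole tail (-0.08 to 0.14, with -0.05 without whole tail replicate 2). It also turned DDX21 (-0.66 to 0.31) and GNL2 (-0.30 to 0.45) at 24 against 0 hpa, and RRN3 (-0.03 to 0.26) and NPM1 (-0.19 to 0.10) at 72 against 24 hpa. The remaining fold changes of the 50 genes were not checked singly, and more of them may turn. BOP1 had the fewest reads of the 50 genes, so counting error weighs most on it.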
